A study of Mus musculus with 4 samples.

Results

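The clustered protocadherins are adhesion proteins of the cadherin superfamily, encoded by tandem arrays of genes on the long arm of human chromosome 5. In the alpha and gamma clusters, each variable first exon has its own promoter and is spliced to constant exons shared by the whole cluster, whereas each beta gene encodes its protein in a single exon. In neurons, where the family is best known, individual cells use different sets of these promoters. The architectural protein CTCF and the cohesin complex bring a chosen promoter to distant enhancers, and promoters that are not used are commonly methylated. The result is a surface identity by which the processes of one neuron recognise each other.

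The stretch examined here was 5:140780000-141520000 (GRCh38), of 740 kb. Its members were chosen by position alone, as the listed ATAC-seq peaks whose summits lay between these borders, and numbered 19 of the 48751 peaks in the list. The stretch was divided into an alpha cluster of 240 kb (140780000 to 141020000), a beta cluster of 220 kb (141040000 to 141260000) and a gamma cluster of 200 kb (141320000 to 141520000). The borders of the clusters were set for this work. A gene annotation of GRCh38 was not used here, so it was not determined which peaks lay at a promoter, in an exon or in an intron, and peaks are named by cluster and by order along the chromosome, from alpha 1 to gamma 10. No sequence is printed, since a sequence of this assembly was not used here.

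ATAC-seq cuts and tags open DNA with the transposase Tn5, so that fragments stack up over accessible sites such as promoters and enhancers. The libraries came from HEK293, an established human cell line of embryonic kidney origin. All cells were transfected for 6 h with a plasmid for dCas9 fused to HaloTag7 and with a TRAFTAC at 25 nM, a double-stranded DNA joined to a guide RNA that brings the fusion protein to the transcription factor bound by the DNA. They then received TNF-alpha at 5 ng/mL, which activates NFkB, for 19 h together with HP14 at 25 µM, a PROTAC that couples the HaloTag to a ubiquitin ligase. The TRAFTAC carried the NFkB motif in 2 libraries and a scrambled sequence in 2 libraries, and the plasmid, TNF-alpha, HP14 and a DNase treatment before harvest were common to all 4. The authors deposited a single peak list, made from the 4 libraries merged. It holds no value for a single library, so the TRAFTACs could not be compared with each other, no replicate error could be given, and all values below describe the 4 libraries pooled. The sample labels name the mouse, but the list holds 3163 peaks on chromosomes 20, 21 and 22, which the mouse lacks.

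The gamma cluster held the most peaks of the 3 clusters and the beta cluster the fewest. There were 6 peaks in the alpha cluster, 3 in the beta cluster and 10 in the gamma cluster, and 0 in the 20 kb between alpha and beta and in the 60 kb between beta and gamma, where a count of 0 allows up to 3.69 peaks each. This gave 2.50 peaks per 100 kb in alpha (exact Poisson 95% interval 0.917 to 5.44), 1.36 in beta (0.281 to 3.99) and 5.00 in gamma (2.40 to 9.20). The density in gamma was 3.67 times that in beta, with an exact 95% interval of the ratio from 0.944 to 20.7, and 2.00 times that in alpha (0.659 to 6.70). All these intervals include equal densities, so that at these numbers of peaks the order of the clusters cannot be told apart from counting error. The intervals reflect counting error alone and treat neighbouring peaks as independent, which they are not. The beta count rests on its border, because beta 1 and beta 2 lay within 1.32 kb of it and 1 peak was left without them. Gamma 1 likewise lay 0.731 kb inside the gamma border, and 9 gamma peaks were left without it.

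**Figure D1:**
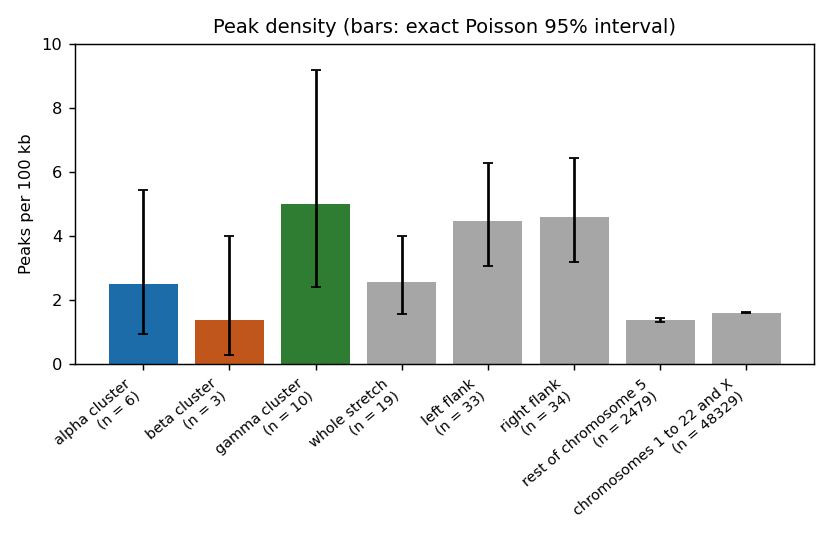
Peaks per 100 kb in the alpha, beta and gamma clusters, in the whole 740 kb stretch, in the flanks of the same length, in the rest of chromosome 5 and on chromosomes 1 to 22 and X, with exact Poisson 95% intervals as error bars and the number of peaks under each name. The gamma cluster, at 5.00, stood near the flanks at 4.46 and 4.59, and the beta cluster, at 1.36, near the rest of chromosome 5 at 1.37.

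The stretch lay in a part of chromosome 5 that was rich in peaks, and held fewer peaks than either side of it. It had 2.57 peaks per 100 kb (1.55 to 4.01), against 4.46 in the 740 kb to its left (33 peaks), 4.59 in the 740 kb to its right (34 peaks) and 1.37 in the rest of the chromosome (2479 peaks). Both flanks together were 1.76 times as dense as the stretch (exact 95% interval of the ratio 1.05 to 3.11). The interval included equality for the left flank alone (1.74, 0.959 to 3.23) and for the right flank alone (1.79, 0.992 to 3.32). Against the rest of chromosome 5 the stretch was 1.87 times as dense (1.12 to 2.93). Of 245 windows of 740 kb tiled along chromosome 5, 208 (84.9%) held fewer than 19 peaks, and the median window held 7. For the gamma cluster, 94.4% of 907 windows of 200 kb on this chromosome held fewer than its 10 peaks, and for the alpha cluster 81.0% of 756 windows of 240 kb held fewer than its 6. For the beta cluster, 61.3% of 824 windows of 220 kb held fewer than 3 peaks and 29.85% held more, with a median of 2. The windows are a description of the chromosome and include its centromere.

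The peaks covered little of the DNA. Their intervals summed to 10320 bp, or 1.39% of the stretch, against 3.40% of both flanks and 0.994% of the rest of chromosome 5. The covered share was 2.94% in the gamma cluster (5885 bp), 1.30% in the alpha cluster (3116 bp) and 0.600% in the beta cluster (1319 bp).

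The peaks were unevenly spread within each cluster. In the alpha cluster, the first 61.4 kb held no peak, and the 6 summits lay 61.6, 76.2, 146.7, 186.6, 222.1 and 224.4 kb from the start of the cluster. In the beta cluster, the 3 summits lay 0.325, 1.32 and 44.6 kb from its start, and nothing further was listed in it. In the gamma cluster, by contrast, the summits ran from 0.731 to 194.5 kb of its 200 kb. The median distance between neighbouring summits was 35.5 kb in alpha (5 distances, 2.30 to 70.5 kb) and 19.7 kb in gamma (9 distances, 1.95 to 54.9 kb). Beta had only 2 distances, of 0.991 and 43.3 kb. Over chromosomes 1 to 22 and X the median distance was 19.4 kb.

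The longest run without a peak covered most of the beta cluster. It reached over 235.35 kb, from 141084894 to 141320243, that is from beta 3 to gamma 1, and took in 175.1 kb, or 79.6%, of the beta cluster together with the whole 60 kb before the gamma cluster. Of the 2497 distances between neighbouring peak edges on chromosome 5, 153 (6.13%) were longer. The next longest within the stretch was the 70.0 kb from alpha 2 to alpha 3, and 23.3% of those on chromosome 5 were longer. The 61.4 kb without a peak at the start of the alpha cluster continued beyond its border, so that 114.7 kb in all separated alpha 1 from the last peak outside. A site absent from the list is not shown to be closed. At the lowest background of the list, the weakest listed peak had 16 fragments stacked at its summit over the 4 libraries and a fold enrichment of 2.30, and sites below such values would not be listed.

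**Figure D2:**
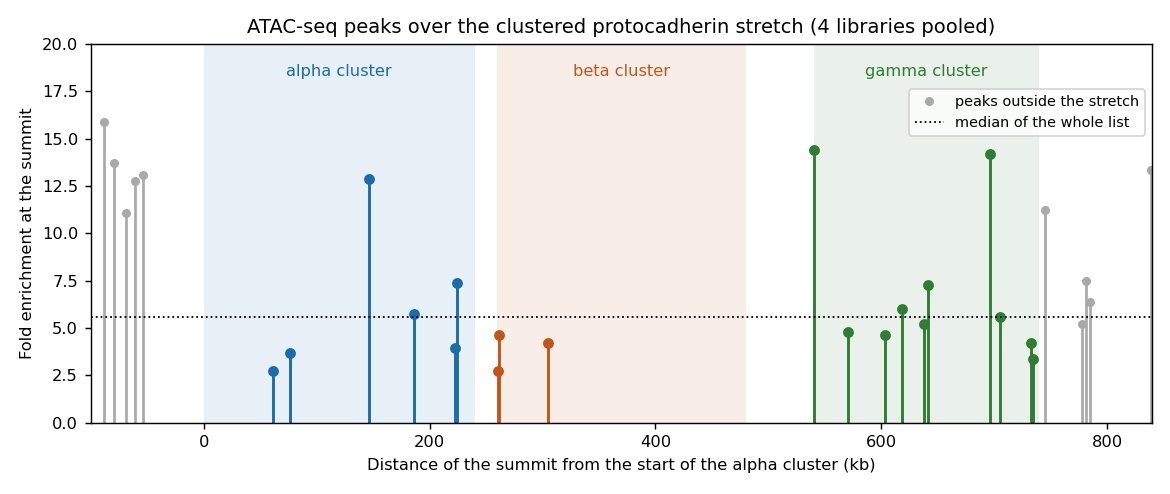
Fold enrichment at the summit (linear ratio, vertical axis) of each peak against its distance from the start of the alpha cluster in kb, with the clusters shaded, grey points for peaks outside the stretch and a dotted line at the median of the whole list, 5.60. Alpha 3, gamma 1 and gamma 7 stood at 12.9, 14.4 and 14.2, all other peaks of the stretch were at or below 7.38, and most of the beta cluster was empty.

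Some peaks came in close pairs. The summits of alpha 5 and alpha 6 were 2.30 kb apart, those of beta 1 and beta 2 0.991 kb, those of gamma 5 and gamma 6 3.39 kb and those of gamma 9 and gamma 10 1.95 kb. Distances under 5 kb thus made up 4 of 18 (22.2%), against 14.1% over chromosomes 1 to 22 and X. With only 18 distances and no test, the share is not shown to differ from that of these chromosomes. The edges of beta 1 and beta 2 were 0.219 kb apart, and 48283 of the 48306 distances between edges on chromosomes 1 to 22 and X were longer. The shortest of these was 0.216 kb, so the pair lay close to the smallest distance at which peaks were listed apart. Whether beta 1 and beta 2 are parts of 1 site was not determined.

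Most of the peaks had a −log10 q-value below the median of the list, and 3 peaks stood apart. The fold enrichment, which sets the fragments stacked at the summit against a local background, was at least 10 in 3 of the 19 peaks (15.8%, 95% Wilson interval 5.52% to 37.6%), against 21.8% of all peaks in the list. These were gamma 1, gamma 7 and alpha 3. The −log10 q-value is the caller's measure of how unlikely the summit is under the background. At a given fold enrichment it rises with the number of fragments. It was at least 20 in 5 peaks (26.3%, 11.8% to 48.8%), against 53.7% of the list, and at least 100 in 2 peaks (10.5%, 2.94% to 31.4%), against 21.5% of the list. Of the 19 peaks, 14 were below the median −log10 q-value of the list, 11 below its median fold enrichment and 13 below its median width. No test was made of these shares, since the list has no replicates.

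Gamma 7 had the highest −log10 q-value of the stretch. It lay at 5:141475707-141476725, was 1019 bp wide and had a fold enrichment of 14.2 and a −log10 q-value of 140.6. This −log10 q-value was above that of 84.2% of the peaks in the list. Gamma 1, at 5:141320244-141321168, had the highest fold enrichment, 14.4, with a width of 925 bp and a −log10 q-value of 114.0. Its place at the border of the gamma cluster leaves its relation to the gamma genes undetermined here. The third, alpha 3, lay past the middle of the alpha cluster, with its summit 146.7 kb from the start of the 240 kb. It was at 5:140926220-140927105, with a width of 886 bp, a fold enrichment of 12.9 and a −log10 q-value of 82.8. Gamma 7, gamma 1 and alpha 3 were also the 3 widest peaks of the stretch, ahead of beta 2 with 723 bp.

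The other 16 peaks ranged in fold enrichment from 2.73 to 7.38 and in −log10 q-value from 2.91 to 28.4. In the alpha cluster, alpha 6 (5:141004044-141004539) reached a fold of 7.38 and a −log10 q-value of 28.3, and alpha 4 (5:140966118-140966788) a fold of 5.74 and a −log10 q-value of 17.8. Alpha 5 (5:141001672-141002178), the close neighbour of alpha 6, had a fold of 3.96 and a −log10 q-value of 8.15. The 2 peaks nearest to the start of the cluster were its weakest and narrowest. Alpha 1 (5:140841427-140841694) was 268 bp wide with a fold of 2.73 and a −log10 q-value of 2.91, and alpha 2 (5:140855912-140856199) was 288 bp wide with a fold of 3.69 and a −log10 q-value of 6.87.

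All beta peaks were weak. Beta 2 (5:141040624-141041346) had a fold enrichment of 4.65 and a −log10 q-value of 11.6, and beta 3 (5:141084560-141084893) a fold of 4.24 and a −log10 q-value of 9.50. Beta 1 (5:141040143-141040404), with 262 bp the narrowest peak of the stretch, had the same fold of 2.73 and the same −log10 q-value of 2.91 as alpha 1. Such ties arise where peaks share both a whole number of fragments at the summit and a background, here 19 fragments over 6.32. In the list, 616 peaks carried this pair of values. A −log10 q-value of 20 was reached by 0 of the 3 beta peaks, which with so few peaks allows a share of up to 56.1% (95% Wilson interval).

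Of the gamma peaks other than gamma 1 and gamma 7, none exceeded a fold enrichment of 7.26. Gamma 6 (5:141420927-141421510) was the strongest of these 8, with a fold enrichment of 7.26 and a −log10 q-value of 28.4, followed by gamma 4 (5:141397846-141398307) with a fold of 6.01 and a −log10 q-value of 19.5. Gamma 2, gamma 3, gamma 5, gamma 8 and gamma 9 lay between a fold of 4.19 and 5.60 and between a −log10 q-value of 11.6 and 17.0. The narrowest of the cluster was gamma 2 (5:141349971-141350320), with 350 bp. The last, gamma 10 (5:141514141-141514648), was the weakest, with a fold of 3.35 and a −log10 q-value of 6.55. All 10 gamma peaks had a −log10 q-value of at least 5, as did 5 of 6 in alpha and 2 of 3 in beta, and 86.5% of the list.

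Medians of the clusters differed by less than the spread within them. The median fold enrichment was 4.85 in alpha (range 2.73 to 12.9), 4.24 in beta (2.73 to 4.65) and 5.40 in gamma (3.35 to 14.4), and the median −log10 q-value was 13.0, 9.50 and 16.4. Median widths were 501.5 bp in alpha, 334 bp in beta and 520 bp in gamma. In the whole stretch the median fold was 4.78 (95% order-statistic interval 3.96 to 7.26), against 5.60 in the list, and the median −log10 q-value was 12.8 (8.15 to 28.3), against 23.3. The median width was 507 bp (350 to 671), against 590 bp, and 6 of the 19 peaks (31.6%, 15.4% to 54.0%) were at least 600 bp wide, against 49.2% of the list. The list's medians of fold enrichment, −log10 q-value and width lay inside the intervals of the stretch, whereas those of the fragments at the summit and of the local background, given further on, lay outside them. The rest of chromosome 5 had medians of 48 fragments at the summit and of 6.94 for the background. Both lay inside the intervals of the stretch. These intervals treat neighbouring peaks as independent, which they are not, and a median inside or outside them is not a test.

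**Figure D3:**
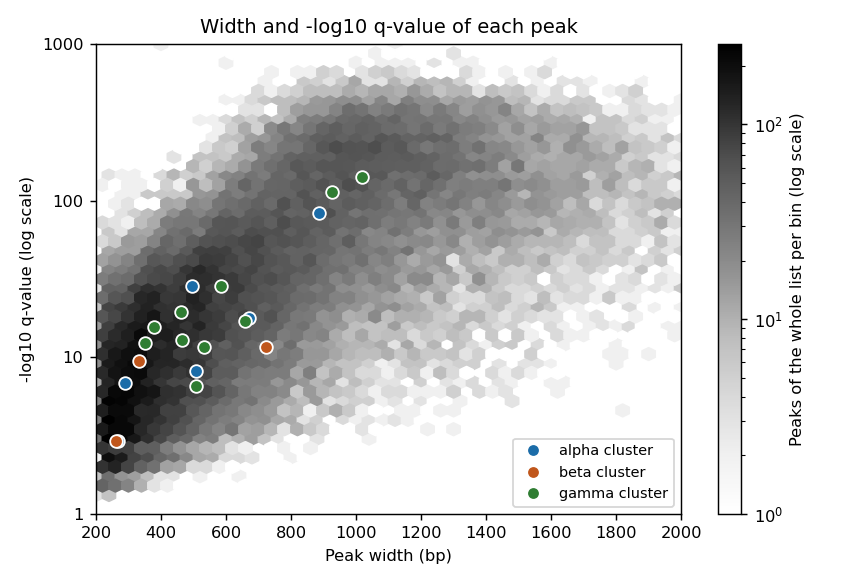
Width in bp (horizontal axis) and −log10 q-value (vertical axis, log scale) of the 19 peaks, coloured by cluster, over the density of all peaks of the list in grey (log colour scale, very wide peaks cut off). The points follow the grey cloud from beta 1 at 262 bp and 2.91, which covers alpha 1, to gamma 7 at 1019 bp and 140.6.

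Wider peaks had higher −log10 q-values in the stretch as in the list. Spearman's rho between width and −log10 q-value was 0.707 over the 19 peaks and 0.729 over the whole list. It is given as a description, since the peaks share the same libraries and both values rise with the number of fragments. Among peaks with a −log10 q-value from 10 to 20, the 8 of the stretch had a median width of 499 bp (350 to 723), against 450 bp in the list (quartiles 336 and 628). Among those below 10, the 6 of the stretch had a median of 311 bp (262 to 508), against 340 bp in the list. The 2 peaks from 20 to 80 had a median of 540 bp against 664 bp, and the 3 of 80 or more one of 925 bp against 1080 bp, where the list reaches far higher −log10 q-values than the stretch.

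The strength of the peaks can also be expressed in fragments. How many fragments were stacked at a summit (the summit pileup), and over which local background, was worked out for all 19 peaks from their folds and p-values. The pileup is therefore not a measurement apart from these values. The summit pileup was 181 fragments at gamma 7 (counting SD 13.5), 144 at gamma 1 (12.0) and 110 at alpha 3 (10.5). The other peaks had 19 to 54 fragments, with a median of 33.5. Of the 19 peaks, 16 were below the median pileup of the list, which was 56. The 3 strongest peaks together held 43.5% of the 999 fragments counted at the 19 summits, and the gamma cluster 64.1%, the alpha cluster 27.7% and the beta cluster 8.21%. The gamma cluster had 10 of the 19 peaks, the alpha cluster 6 and the beta cluster 3, so the shares of the clusters also reflect their numbers of peaks. Gamma 1, next to the border, gave 144 of the 640 gamma fragments. The median pileup of the stretch was 40 fragments (95% order-statistic interval 29 to 53), or 10 per library on average, and on a pileup of 40 counting error alone gives an SD of 15.8%.

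**Figure D4:**
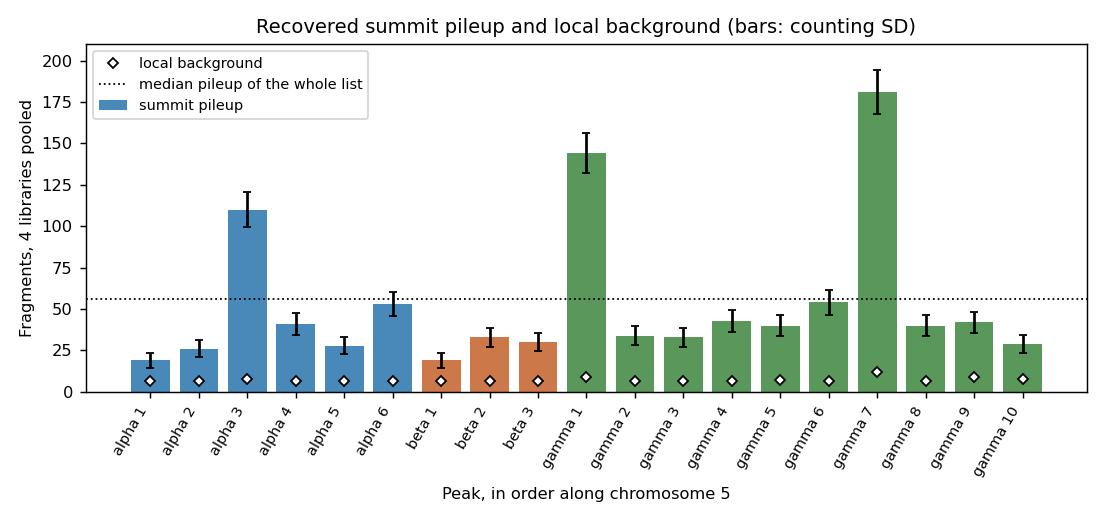
Summit pileup of each of the 19 peaks in fragments of the 4 pooled libraries (bars, with the counting SD as error bars), the local background (open diamonds) and the median pileup of the whole list, 56 (dotted line), in order along chromosome 5. Alpha 3, gamma 1 and gamma 7 rise to 110, 144 and 181, and the background stays between 6.32 and 11.8 fragments.

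Around most of the peaks the background was as low as anywhere in the list. The caller uses the genome-wide level, 6.32 fragments here, wherever the surroundings of a peak hold no more than that. The background lay within 1% of this level at 12 of the 19 peaks (63.2%), against 34.4% of the list, 44.8% of the rest of chromosome 5, 9.09% of the left flank and 35.3% of the right flank. The median background of the stretch was 6.32 fragments (95% interval 6.32 to 7.61), against 8.56 in the list and 6.94 in the rest of chromosome 5. These were 5 of the 6 alpha peaks, all 3 beta peaks and 4 of the 10 gamma peaks. The highest background, 11.8 fragments or 1.87 times the lowest, was that of gamma 7, followed by 9.26 at gamma 9 and 9.06 at gamma 1. A strong peak adds its own fragments to the surroundings over which the background is taken, and the part of this in these values was not tested.

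The summits were not placed alike within the peaks. In the alpha cluster, all 6 summits lay past the middle of the peak in the direction of rising coordinates, at 52.0% to 83.0% of its width. In the gamma cluster, 4 of 10 did, and in the 6 neighbouring peaks from gamma 2 to gamma 7 the summit lay at 24.2% to 34.0% of the width. In the list, 48.9% of the summits lay past the middle. This pattern was noticed after the values were seen, and no test was made of it.

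The nearest peak on each side of the stretch was stronger than most peaks inside it. The nearest on the right, 5:141524688-141525353, had its summit 4.94 kb beyond the border, with a fold enrichment of 11.2, a −log10 q-value of 70.7 and a pileup of 102 fragments. The nearest on the left, 5:140725394-140726677, had its summit 53.8 kb before the border, with a fold of 13.1, a −log10 q-value of 156.8 and a pileup of 213. The following peaks on the right, 38.0 and 41.0 kb beyond the border, had folds of 5.19 and 7.47. Those following on the left, 61.0 and 68.8 kb before the border, had folds of 12.8 and 11.1. The last members inside the borders, alpha 1 and gamma 10, had folds of 2.73 and 3.35. Over the whole left flank the median −log10 q-value was 121.7 (95% interval 31.0 to 171.1) and the median fold 9.22 (5.61 to 11.7), and 51.5% of its peaks reached a −log10 q-value of 100. The intervals of the left flank and of the stretch did not overlap for the −log10 q-value, and overlapped for the fold. Over the right flank the median −log10 q-value was 22.3 (11.6 to 58.8) and the median fold 6.37 (4.65 to 8.36), and both intervals overlapped those of the stretch. All these intervals treat neighbouring peaks as independent, and whether they overlap is a description and not a test.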

How the data were processed

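The data were ATAC-seq peaks of HEK293 cells, 2 libraries with the NFkB TRAFTAC and 2 with the scrambled TRAFTAC, made from 50000 cells each with 8 cycles of PCR. Per the labels and the paper's methods, the authors trimmed the reads with Trimmomatic, aligned them with Bowtie2 to GRCh38.p10, and marked duplicates with Picard before peak calling by MACS2 on read pairs. The peak list is labelled as made from the merged samples, and the q-value limit of this call is not given in the sources used here. Its highest q-value was 0.0487. The deposited values are the fold enrichment as a linear ratio, the −log10 p-value and −log10 q-value, a score that restates the −log10 q-value, and positions, which were turned into 1-based coordinates. Columns of single samples number 0. The depth per library is unknown from the list.

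Peaks were assigned by their summit with Python 3.11.15 (pandas 2.3.3, scipy 1.17.1, numpy 2.4.6), and plotted with matplotlib 3.10.9. Pileups were recovered as the whole number whose Poisson tail matches the listed p-value (pseudocount 1, misfit at most 0.001), a search tested on simulated data. Intervals are exact Poisson intervals for densities, exact conditional (Clopper-Pearson) intervals for ratios of densities, order-statistic intervals for medians and Wilson intervals for shares, all at 95%. The last peak of a chromosome was taken as its end. No test between groups was possible. The members and lists were chosen with earlier results of these data known. The rule for the peaks named was, per cluster, the first and last by position and the extremes of fold, width, −log10 q-value and spacing, and, with 25 or fewer peaks in a cluster, any of them. Alternatives were minimum −log10 q-values of 5 and 2, assignment by overlap, joining of peaks within 500 bp, flanks of 1 Mb, a pseudocount of 0 and a list of chromosomes 1 to 22 and X. Leaving out peaks within 1.5 kb of a cluster border was added after seeing the data. The planned counts of protocadherin promoters, regulators and motifs were not run, because an annotation and sequence of GRCh38 were not used here.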

Additional observations from a re-analysis of the deposited data

How the results depend on the processing

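Of 144 values recomputed under the alternatives, 142 stayed within 1.5 times a count or within the interval of a median. With only 6 alpha peaks and 3 beta peaks the interval is the whole range of the peaks, so this says little of stability there. Many of the 144 values could not move, because the alternative left the same peaks in place. These include all 28 values with a minimum −log10 q-value of 2 and all 28 with assignment by overlap. The count of 142 is therefore not a measure of stability. The median width of the beta peaks rose from 334 to 769 bp when peaks within 500 bp were joined, because beta 1 and beta 2 became 1 site, and to 528.5 bp with a minimum −log10 q-value of 5, which removes beta 1. The number of beta peaks fell from 3 to 1 without peaks within 1.5 kb of a border, an alternative chosen after seeing the data. With a minimum −log10 q-value of 5, 17 of the 19 peaks were kept, and with one of 2 or with assignment by overlap all 19. With flanks of 1 Mb the densities were 4.40 and 3.90 peaks per 100 kb. With a pseudocount of 0, a whole pileup was found for 0 of the 19 peaks, so this gave no value. Replicates could not be left out in turn. No paired analysis was possible because the values used here are those of the pooled libraries. The counts of promoters were not run.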
